A study of Rattus norvegicus with 18 samples.

Results

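Per1, Mt2A and Anxa1 are 3 genes that glucocorticoid hormones are known to switch on, and their transcripts were followed here in the dorsal root ganglia of rats after total knee arthroplasty (TKA). They were chosen by name, 1 transcript each (ENSRNOT00000057136 for Per1, ENSRNOT00000067391 for Mt2A and ENSRNOT00000023664 for Anxa1), out of 41078 transcripts in the count table, of which 26197 had at least 1 count. The study had named all 3 from these same rats. Neither their direction after surgery nor their p-values in comparisons that hold the TKA group are therefore independent evidence. The samples were left L3 and L4 dorsal root ganglia of 18 Sprague Dawley rats, 6 naive, 6 sham and 6 TKA, each group made up of 3 rats labelled male and 3 labelled female. TKA rats received a knee prosthesis, sham rats received a skin incision that was sutured, and naive rats had no procedure. Sham and TKA rats had isoflurane for the operation, their ganglia were taken 24 h afterwards, and all rats were killed under deep isoflurane. The clock hour at which each rat was killed is not given in the sources used here.

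Glucocorticoids act through the glucocorticoid receptor, which enters the nucleus, binds DNA near its target genes and raises their transcription within hours of a stressor. Per1 encodes a repressor protein of the circadian clock, and its transcription follows both the clock and the hormone. Mt2A encodes a metallothionein, a small cysteine-rich protein that binds zinc and copper, and its promoter also answers to metals. Anxa1 encodes annexin A1, a membrane-binding protein that glucocorticoids induce and that limits the recruitment of leukocytes. In a ganglion the RNA comes from sensory neurons, satellite glia, Schwann cells, macrophages, vessels and connective tissue together, and for any bulk value fewer cells of a type cannot be told apart from less RNA per cell.

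The Mt2A promoter is shown because this gene had the largest fold-change of the 3 and its window held the metal response elements that a metallothionein gene is known for. The sequence is the minus strand from RefSeq, 250 bases that end just before the annotated start, at chr19:10838709-10838958 of build GRCr8. Capitals mark matches to the metal response element core (TGCGCNC or TGCACNC on either strand), the E-box CACGTG that clock proteins bind, and a TATA box (TATAAA).

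Mt2A promoter: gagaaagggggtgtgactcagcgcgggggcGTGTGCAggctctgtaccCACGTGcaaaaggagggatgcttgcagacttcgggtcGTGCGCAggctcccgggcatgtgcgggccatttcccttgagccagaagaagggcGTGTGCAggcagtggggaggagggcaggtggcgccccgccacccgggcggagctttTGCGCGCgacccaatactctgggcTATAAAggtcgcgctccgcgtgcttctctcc

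These letters held 4 metal response element cores, beginning at -220, -165, -111 and -55 from the start. At least as many were found in 0.439% of the 33469 RefSeq promoters of the same 300-base window, and at least 1 in 24.2%. The E-box occurred in 6.42% and the TATA box in 14.2% of those promoters. A glucocorticoid receptor half-site (AGAACA, either strand, 20.7% of promoters) and the full inverted repeat (AGAACA and TGTTCT with 3 bases between, 0.0149%) were not found in the window of any of the 3 genes. The Anxa1 window held a TATA box, and the Per1 window held none of the 6 motifs searched, which also included the cyclic AMP response element TGACGTCA. For Per1 and Anxa1 the window lies at a start inside the gene's RefSeq span rather than at its outer end. A match, or its absence, describes these letters only.

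The libraries held 20230562 to 29343899 counts per rat (median 22564914), and levels below are counts scaled to library size by TMM over the 18 rats (CPM). TKA rats 2 and 6 stood apart from the rest in markers of other cells. Summed over 8 myelinating Schwann cell markers, the level reached 12689 CPM in TKA rat 2, against at most 3484 CPM in sham rats and 2139 CPM in naive rats. The 4 named sensory neuron markers, 3 neurofilament subunits and Calca, summed to 17146 to 39732 CPM in TKA rats, 34413 to 44229 CPM in sham rats and 35582 to 47097 CPM in naive rats. In naive rats the ganglion label held against 1 of its own markers, since the neurofilament gene Nefl averaged 14503 CPM. TKA rat 2 had the lowest neuron marker sum, 17146 CPM, beside 8369 CPM of skeletal muscle markers. The 3 genes, the list counts that follow and several single list genes are therefore also given from further fits. These leave out TKA rat 2, leave out TKA rats 2 and 6, or add the neurofilament level as a covariate in edgeR. That level is the mean log2 CPM of the 3 neurofilament subunits, Nefl, Nefm and Nefh. Of the 4 neuron markers, 3 were lower in TKA than in sham rats at an edgeR unadjusted p under 0.05, as were 2.9% of all transcripts. The covariate and the surgery therefore cannot be fully told apart. The library labelled female TKA rat 4 held 3472 counts of 3 transcripts that were present in every male and at most 1 count in every female of the naive and sham groups (3097 to 5025 counts in rats labelled male), so its sex label goes against its transcripts.

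After TKA, all 3 genes were at higher mean levels than after sham surgery, Mt2A by the largest factor and Anxa1 by the smallest. In edgeR's quasi-likelihood test over 15320 transcripts none of the 3 passed the Benjamini-Hochberg threshold, and the percentage of all tested transcripts that did was 0 (lowest adjusted p = 0.196). All 3 had an unadjusted p under 0.05 with the higher level after TKA, as did 5.94% of all transcripts and 42.2% of the transcripts named through the study's table for this comparison.

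Per1, the clock repressor, ranged from 75.7 to 161 CPM in TKA rats (median 128), from 55.1 to 77.1 CPM in sham rats (median 71.1) and from 52.8 to 107 CPM in naive rats (median 88.1). Rats 1, 2, 3 and 6 of the TKA group, at 147, 161, 129 and 128 CPM, lay above every other rat of the study, while TKA rats 4 and 5, at 75.7 and 80.2 CPM, lay within the naive range. The means were 120.0 ± 34.8 CPM in TKA, 69.6 ± 8.09 CPM in sham and 84.0 ± 19.1 CPM in naive rats (SD, n = 6 each). The log2 fold-change of TKA over sham was 0.80 (SE 0.18, edgeR adjusted p = 0.331), and its p ranked 35 among all transcripts. It was 0.68 without TKA rat 2, 0.62 without TKA rats 2 and 6, and 0.52 with the neurofilament covariate (edgeR unadjusted p = 0.000896, 0.00271 and 0.0270), so the covariate reduced it by over 1.5 times. In the exact permutation test over the 12 rats, 2-sided, the difference gave p = 0.00649 (0.0195 adjusted over 9 tests, n = 6 per group). Adjustment over the 9 tests does not cover the choice of the genes from these same rats. Of the 6 TKA rats, 5 were above every sham rat.

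Mt2A, the metallothionein, was read at 62 to 261 counts in the sham libraries and 149 to 1123 counts in the TKA libraries, so that it rested on fewer counts than the other 2 genes. Its level was 3.71 to 6.71 CPM in naive rats (median 5.34), 2.70 to 11.7 CPM in sham rats (median 6.77) and 6.21 to 57.2 CPM in TKA rats (median 18.1). TKA rat 2 held the 57.2 CPM and TKA rat 6 the next highest value of 23.8 CPM, whereas TKA rat 1 sat among the naive and sham rats. The means were 5.47 ± 1.08, 6.995 ± 3.26 and 22.8 ± 17.9 CPM in naive, sham and TKA rats (SD, n = 6 each). TKA over sham the log2 fold-change was 1.72 (SE 0.48, edgeR p = 0.00336, adjusted p = 0.490), with an exact permutation p of 0.0152 (0.0341 adjusted over 9 tests, n = 6 per group). Without TKA rat 2 the log2 fold-change was 1.17, without TKA rats 2 and 6 it was 0.98, and with the neurofilament covariate it was 0.84 (edgeR unadjusted p = 0.0853). Reads of near-identical metallothionein copies may be counted here, so the value of this gene is uncertain to that extent.

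Anxa1, the annexin, lay between 47.9 and 62.9 CPM in naive rats (median 54.6), 44.9 and 83.0 CPM in sham rats (median 68.1), and 67.4 and 124 CPM in TKA rats (median 86.6). TKA rats 3 and 6 were highest at 124 and 107 CPM, TKA rats 1 and 5 overlapped the sham rats, and no TKA rat overlapped a naive rat. The means were 55.5 ± 6.52, 65.3 ± 13.7 and 91.1 ± 21.04 CPM (SD, n = 6 each). The log2 fold-change of TKA over sham was 0.49 (SE 0.17, edgeR p = 0.0143, adjusted p = 0.533), and the exact permutation p was 0.0303 (0.0545 adjusted over 9 tests, n = 6 per group). With the neurofilament covariate it was 0.55 (edgeR unadjusted p = 0.0270), without TKA rat 2 it was 0.48, and without TKA rats 2 and 6 it was 0.42.

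**Figure D1:**
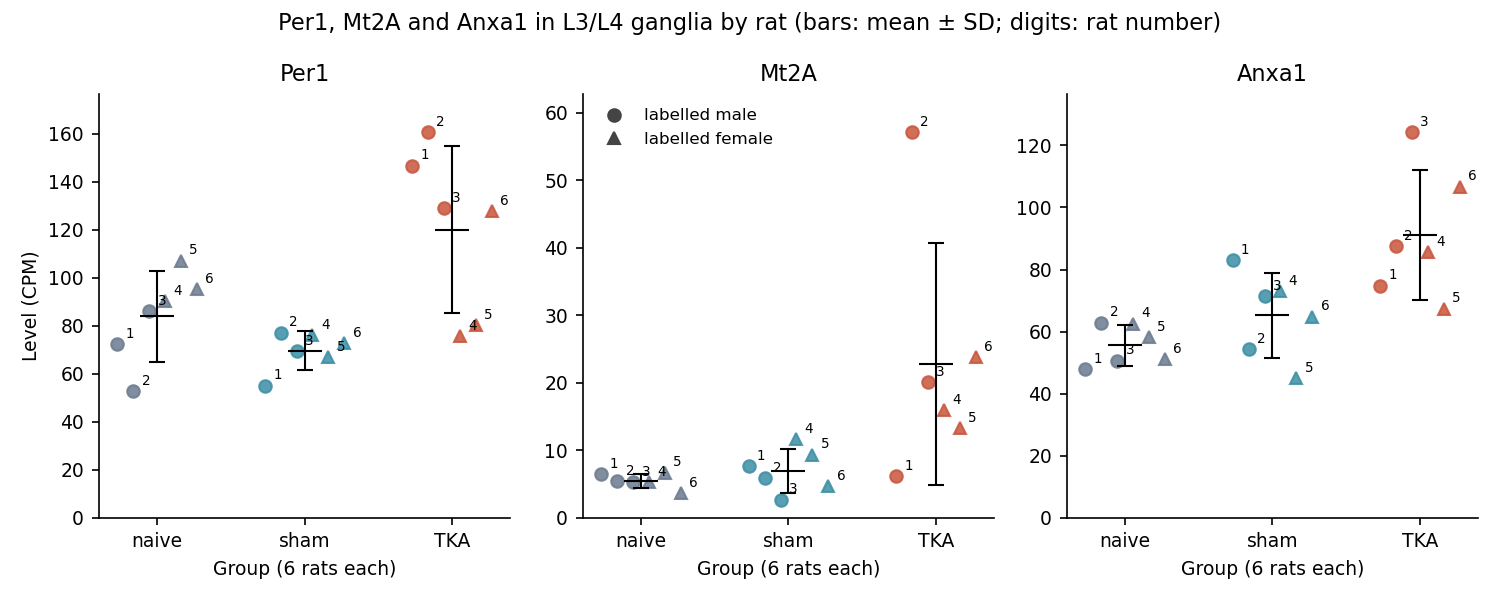
Levels of Per1, Mt2A and Anxa1 in CPM (y axes, from 0) in each of 18 rats by group; circles are rats labelled male, triangles rats labelled female, digits rat numbers, and bars the mean ± SD of 6 rats. Per1 in TKA rats splits into 4 rats at 128 to 161 CPM and 2 rats at 75.7 and 80.2 CPM, Mt2A is carried highest by TKA rat 2 at 57.2 CPM, and the 6 TKA rats for Anxa1 all sit above the 6 naive rats.

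Against naive rats, a comparison that covers the whole procedure including incision and anaesthesia, the order of the 3 genes was different. These values share the TKA rats with the comparison above, so the comparisons are not independent. Mt2A was 2.08 higher on the log2 scale in TKA than in naive rats (SE 0.42, edgeR adjusted p = 0.0942), and 5 of 6 TKA rats were above every naive rat. Anxa1 was 0.73 higher (SE 0.14, edgeR adjusted p = 0.0923), with 6 of 6 TKA rats above every naive rat, as held for 1.16% of the 15170 transcripts tested. Per1 was 0.53 higher (SE 0.21, edgeR adjusted p = 0.232), with 4 of 6 TKA rats above every naive rat. With the neurofilament covariate Mt2A was at 1.22 (edgeR adjusted p = 0.558), Anxa1 at 0.79 (adjusted p = 0.168) and Per1 at 0.20 (adjusted p = 0.916). Without TKA rat 2 the values were 1.54, 0.73 and 0.42, and without TKA rats 2 and 6 they were 1.35, 0.67 and 0.37. Mt2A was 1.22 also in limma voom with quality weights (adjusted p = 0.0720). None of the 3 was among the 13 transcripts (0.0857% of those tested) that passed an adjusted p under 0.05 and a fold-change of 1.5. The exact permutation tests, with n = 6 per group, gave p = 0.00649 for Mt2A, 0.00216 for Anxa1, which is the smallest this design can give, and 0.0628 for Per1 (0.0195, 0.0195 and 0.0942 adjusted over 9 tests). DESeq2 called Mt2A and Anxa1 here (adjusted p = 0.000151 and 0.00182), where it called 1.82% of its 24713 transcripts. In TKA against sham rats DESeq2 called Per1 and Mt2A (adjusted p = 0.0309 and 0.0444) and 0.267% of its 24710 transcripts.

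After the skin incision of sham surgery alone none of the 3 genes differed from naive rats at an unadjusted p under 0.05 in the main edgeR fit. In sham against naive rats the log2 fold-change was -0.26 (SE 0.14) for Per1, 0.37 (SE 0.30) for Mt2A and 0.24 (SE 0.13) for Anxa1. The edgeR unadjusted p was 0.0768, 0.236 and 0.0791 in that order, and the adjusted p was 0.998 for each. Exact permutation p-values, n = 6 per group, were 0.171, 0.504 and 0.177. Of the 15153 transcripts tested 0 were called by edgeR, with 4.12% at an unadjusted p under 0.05 and 5 (0.02% of 25055) called by DESeq2, and none of the 3 genes was among either. For Per1 the sham rats were the lowest group, so that its TKA-over-sham difference was larger than its TKA-over-naive difference, whereas for Mt2A and Anxa1 the naive rats were the lowest. With 6 rats per group these tests do not show that sham and naive levels were equal. Single rats moved these small differences. Mt2A was 0.15 without sham rat 4 and 0.53 without sham rat 3 (edgeR unadjusted p = 0.599 and 0.0499), Per1 was -0.36 without naive rat 2 (unadjusted p = 0.00359), and Anxa1 was 0.33 without sham rat 5 (unadjusted p = 0.00978) and 0.16 without sham rat 1, with edgeR adjusted p of at least 0.871 whichever rat was left out. In limma voom with quality weights Mt2A was 0.03 and Per1 -0.14.

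**Figure D2:**
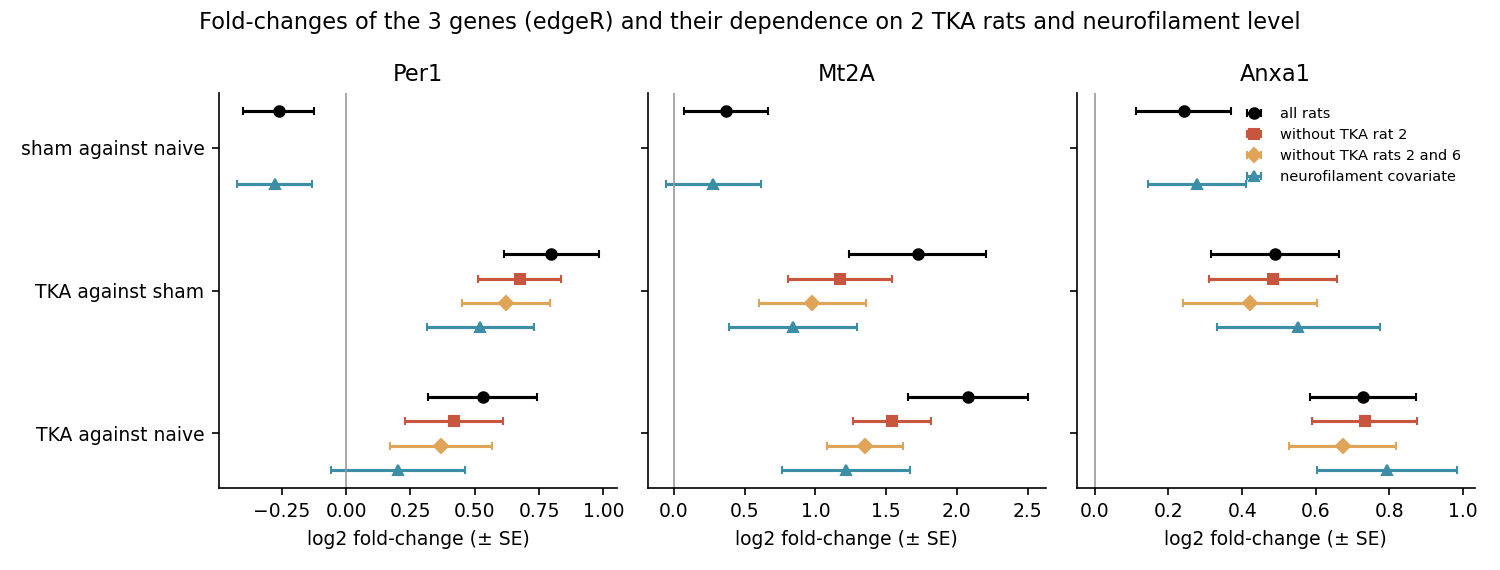
Log2 fold-changes (x axes) of the 3 genes in the 3 comparisons (rows), with bars of ± 1 SE from edgeR; black circles use all 12 rats, squares leave out TKA rat 2, diamonds leave out TKA rats 2 and 6, and triangles add the neurofilament level as a covariate. Mt2A moves from 1.72 to 0.84 in TKA against sham rats across these fits and Per1 from 0.53 to 0.20 in TKA against naive rats, while Anxa1 stays between 0.42 and 0.55 in TKA against sham rats.

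Other genes known to be induced by glucocorticoids were at higher levels in TKA rats alongside the 3. Of 30 listed, 24 had a name in the tables used and 23 were tested. The list was chosen with earlier results of these data known, so its direction is not independent evidence. In TKA against sham rats 22 of 23 had a log2 fold-change above 0, and the median was 0.88 against 0.01 over all transcripts. Of all transcripts 51.5% were above 0, and of those named through the study's table for this comparison 65% were. At an unadjusted p under 0.05, 21 were higher and none was lower. None passed edgeR's adjusted threshold. DESeq2 called 6, Nfkbia, Cebpd, Klf15, Sult1a1, Cdkn1a and Zfp36, where it called 0.267% of its 24710 transcripts. All 6 are among the transcripts that the study listed as changed in these same rats. Because names came from tables in which the study listed its changed transcripts, 42.2% of transcripts named through the table of this comparison also were higher at an unadjusted p under 0.05. Without TKA rat 2 the count was 18 of 23 (23.7% of transcripts so named) with a median of 0.57, without rats 2 and 6 it was 15 (15.5%) with a median of 0.49, and with the neurofilament covariate it was 10 (8.95%) with a median of 0.50.

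Regulators of inflammatory signalling had the lowest p of that list. Zfp36, which destabilises cytokine mRNAs, was at 53.6 CPM after TKA and 21.8 CPM after sham surgery, a difference of 1.31 on the log2 scale (SE 0.21, edgeR adjusted p = 0.196), with 6 of 6 TKA rats above every sham rat. Cebpd, a transcription factor of the acute-phase response, had a log2 fold-change of 0.98 (SE 0.16, edgeR adjusted p = 0.196), also with 6 of 6 above. Nfkbia, the inhibitor of NF-kB, was 1.08 higher (SE 0.22, edgeR adjusted p = 0.282). Neurofilament adjustment moved Zfp36 to 1.36 and Cebpd to 1.08, and Nfkbia to 0.67 (edgeR unadjusted p = 0.0142). Such separation of all 6 rats from all 6 was seen in 0.444% of the transcripts tested.

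The classical hormone reporters were also at higher mean levels after TKA. Tsc22d3, which encodes the leucine zipper protein GILZ, had a log2 fold-change of 0.41 (SE 0.12) and Fkbp5, the receptor's co-chaperone, 0.61 (SE 0.17). Klf9, a transcription factor that the receptor induces directly, had 0.40 (SE 0.18), Dusp1, a phosphatase of MAP kinases, 0.61 (SE 0.16), and Zbtb16, 1.15 (SE 0.36) from 4.77 CPM in sham rats. Each was at an edgeR unadjusted p under 0.05 and an adjusted p between 0.439 and 0.557. With the neurofilament covariate Tsc22d3 was 0.18, Klf9 0.27 and Zbtb16 0.55 (edgeR unadjusted p = 0.133, 0.264 and 0.214), while Fkbp5 was 0.52 and Dusp1 0.60 (unadjusted p = 0.0387 and 0.0117). Klf9 was 0.31 without TKA rat 2 (unadjusted p = 0.0885), and Zbtb16 was 0.54 without TKA rats 2 and 6 (unadjusted p = 0.0756). Sgk1, a kinase that the mineralocorticoid and glucocorticoid receptors induce, was the exception, at -0.38 (SE 0.33), with 2.03 CPM in TKA and 2.66 CPM in sham rats, and it was lower at -0.77 without TKA rats 2 and 6 and at -1.05 with the neurofilament covariate (edgeR unadjusted p = 0.0491 and 0.0156). The glucocorticoid receptor gene Nr3c1 and the other receptor, enzyme and chaperone genes listed had no name in the tables used and were not analysed here.

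In TKA against naive rats 22 of the 23 were again above 0. Of all transcripts 52.2% were, and of those named through the table of TKA against sham rats 64.9% were. At an unadjusted p under 0.05, 17 were higher, against 11.7% of all transcripts and 46.5% of those so named. That count was 17 without TKA rat 2 (36.5% of transcripts so named), 16 without TKA rats 2 and 6 (25.8%) and 7 with the neurofilament covariate (8.58%), with medians of 0.62, 0.43 and 0.17 against 0.84. Zfp36, Cebpd and Cdkn1a, an inhibitor of the cell cycle, rose in TKA over naive rats by log2 fold-changes of 1.48 (SE 0.13, edgeR adjusted p = 0.000392), 1.47 (SE 0.16, edgeR adjusted p = 0.00185) and 1.92 (SE 0.32, edgeR adjusted p = 0.0419). These were 1.64, 1.69 and 1.63 with the neurofilament covariate. Fkbp5 and Zbtb16 were at 0.38 (SE 0.18) and 0.41 (SE 0.38), with unadjusted p of 0.0584 and 0.297. In sham against naive rats 11 of the 23 were above 0 (51.7% of all transcripts), with a median of -0.01, and at an unadjusted p under 0.05 there were 2 higher (2.49% of all) and 2 lower (1.64%). Among the 18 rats the highest level fell in TKA rat 2 for 12 of the 23 genes, in TKA rat 6 for 6 and in TKA rat 3 for 3.

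**Figure D3:**
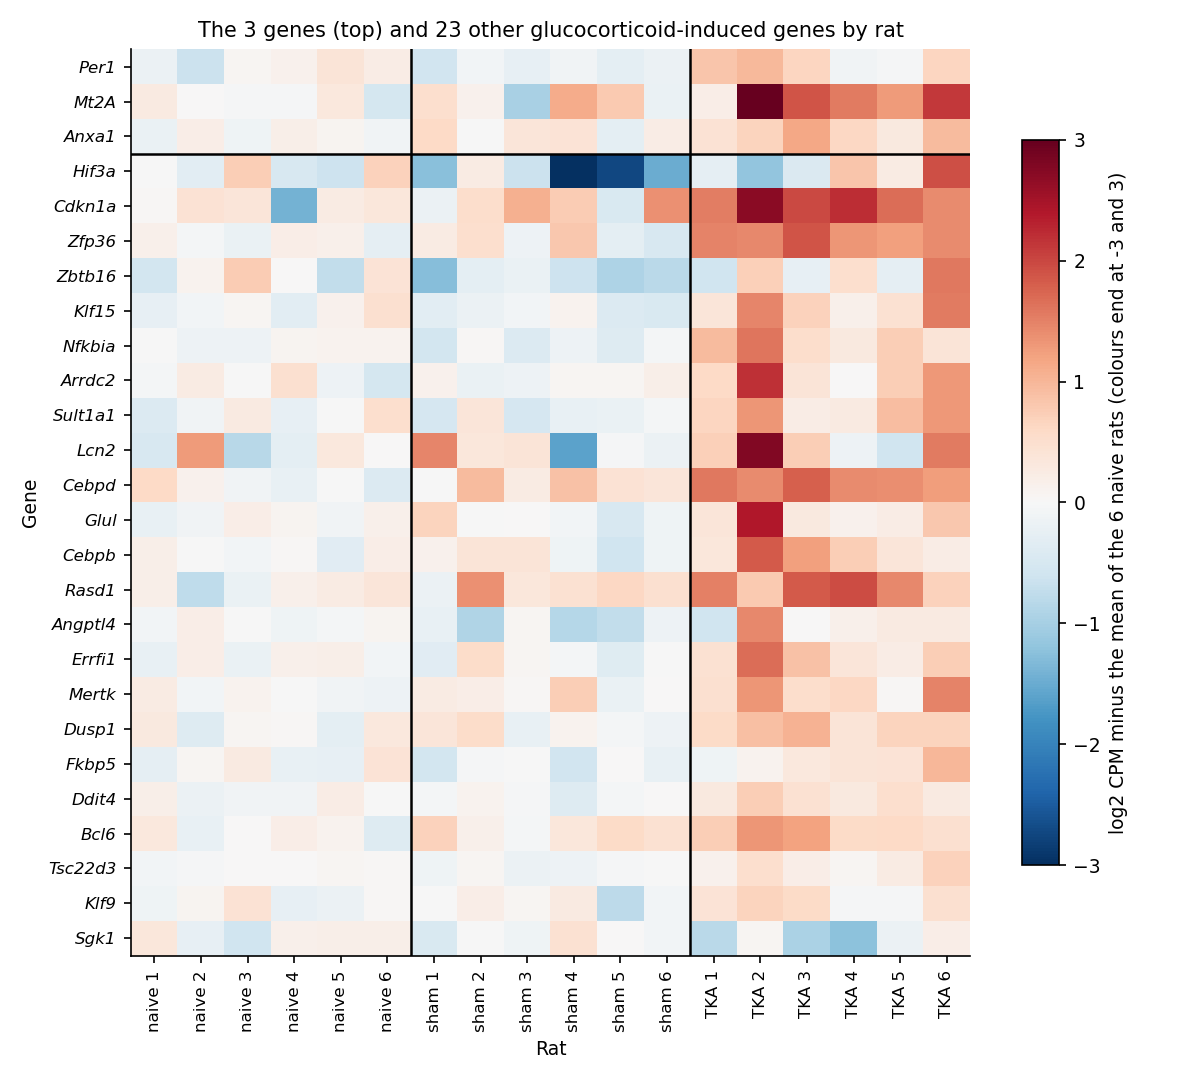
Heat map of log2 CPM minus the mean of the 6 naive rats for Per1, Mt2A and Anxa1 (above the line) and 23 other glucocorticoid-induced genes (below, ordered by log2 fold-change of TKA over sham rats) in 18 rats (columns); red is higher, blue lower, and colours end 3 log2 units from the naive mean. TKA rat 2 is the highest rat for 12 and TKA rat 6 for 6 of the 23, while Zfp36 and Cebpd are red in all 6 TKA rats.

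Families closest to each of the 3 were thinly named. Anxa3 was the only other annexin of 8 listed with a name, at 23.6 CPM in TKA and 9.26 CPM in sham rats (log2 fold-change 1.37, SE 0.47; edgeR adjusted p = 0.533), and it was 0.81 without TKA rat 2 and 0.26 with the neurofilament covariate (edgeR unadjusted p = 0.0318 and 0.610). The annexin A1 receptors Fpr1 and Fpr2 were near the limit of detection, with group means under 1 CPM. Of 9 listed genes that handle metals, the zinc importers Slc39a1 and Slc39a14 had names, and both had an unadjusted p under 0.05, with log2 fold-changes of 0.50 (SE 0.16) and 0.36 (SE 0.13) over sham rats. They were 0.35 and 0.53 with the neurofilament covariate (edgeR unadjusted p = 0.0923 and 0.00213). Mt1, the metallothionein neighbouring Mt2A in function, was not analysed here.

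Markers of other cells moved with the surgery as well. In TKA against sham rats 7 of 8 Schwann cell markers, 4 of 6 macrophage markers, 2 of 4 muscle markers, 4 of 4 connective tissue markers and 2 of 3 endothelial markers were higher at an unadjusted p under 0.05, against 5.94% of all transcripts and 42.2% of those named through this comparison's table, and 3 of 4 neuron markers were lower, as were 2.9% of all transcripts. The other neuron marker had a log2 fold-change of 0.07. In each fit with TKA rats left out, 1 of the 4 neuron markers was higher at an unadjusted p under 0.05. Without TKA rat 2 the counts higher were 1 Schwann cell, 2 macrophage, 0 muscle, 2 connective tissue and 1 endothelial marker (3.89% of all transcripts). Without TKA rats 2 and 6 they were 0, 2, 0, 1 and 1 (3.26% of all), and the median log2 fold-change of the 8 Schwann cell markers went from 1.27 to -0.01. With the neurofilament covariate the count was 0 for each of these 5 lists, as 2.96% of all transcripts were higher. The 2 named satellite glia markers went apart, Gfap at 2.51 (SE 0.82, edgeR adjusted p = 0.523, 1.12 without TKA rat 2 and 0.49 with the neurofilament covariate) and Fabp7 at -0.34 (SE 0.16, edgeR adjusted p = 0.566), and the 2 named haemoglobin markers were at 0.79 and 1.78 with neither under 0.05. No named marker was at 0 in any rat except Mb, at 0 in 2 rats, and no neutrophil marker had a name. Summed skeletal muscle markers ranged from 18.7 to 248 CPM in naive, 20.2 to 606 CPM in sham and 33.2 to 8369 CPM in TKA rats. The part of these cells in the levels of Per1, Mt2A and Anxa1 was not tested beyond the covariate and the left-out rats.

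Within groups the 3 genes did not vary together detectably. After subtracting each group's mean log2 CPM, Per1 and Mt2A had Pearson r = 0.145 and Spearman rho = 0.112 over 18 rats (permutation p = 0.647 and 0.668). Per1 and Anxa1 had r = 0.0600 and rho = 0.0485 (permutation p = 0.830 and 0.857), and Mt2A and Anxa1 r = 0.170 and rho = 0.333 (permutation p = 0.586 and 0.241). Adjusted over the 3 pairs, p was 0.830 for each r, and 0.857, 0.857 and 0.724 for the rho. Without the 2 rats farthest from the median of the first gene, r was 0.160, 0.184 and 0.103, and without TKA rat 2 Per1 and Mt2A had r = -0.12. Pooled over all 18 rats without subtracting group means, r was 0.53, 0.44 and 0.62, which holds the difference between groups. Within the 6 TKA rats the highest of the 3 values of rho was 0.71, for Mt2A and Anxa1 (exact permutation p = 0.136, n = 6).

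**Figure D4:**
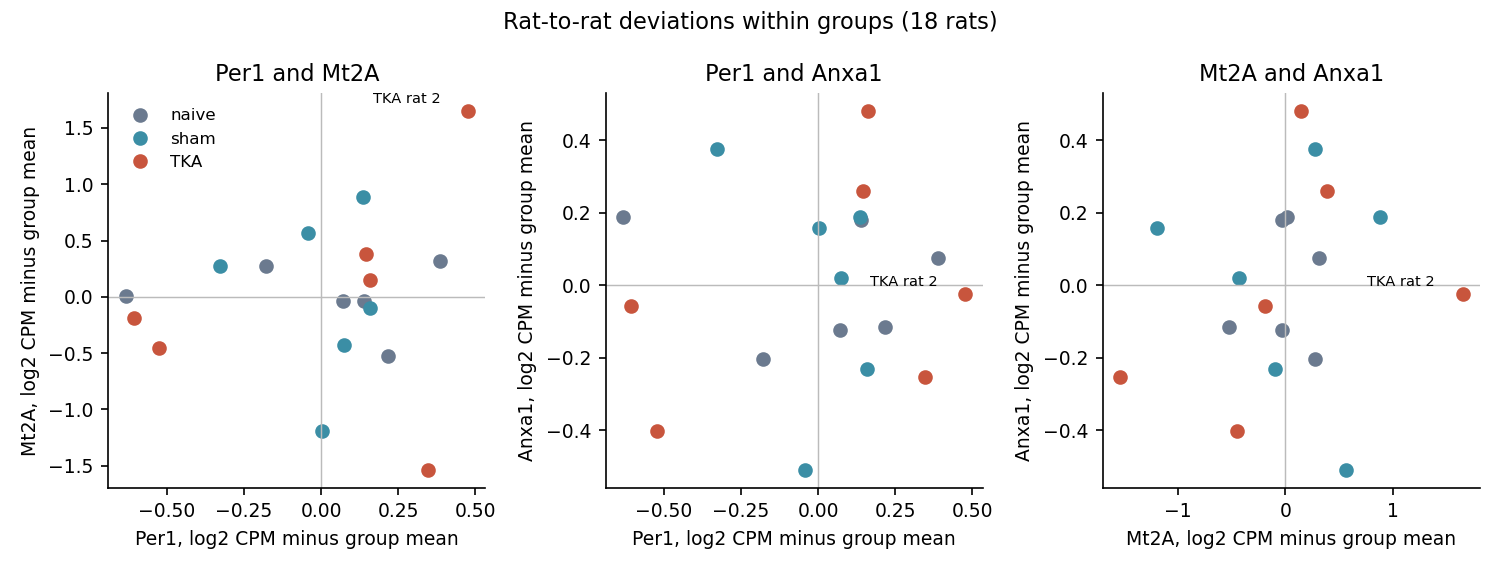
Deviations of log2 CPM from the group mean for each pair of the 3 genes (axes, log2 units), 1 point per rat over 18 rats, coloured by group. No pair lines up (r between 0.060 and 0.170), and TKA rat 2 is the rightmost point for Mt2A.

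Of 2730 named transcripts with a mean of at least 50 counts, those whose log2 CPM followed each gene most closely over the 18 rats were different for the 3. For Per1 the 5 with the highest Spearman rho were Nfkbia (0.85), Garre1 (0.84), Tsc22d3 (0.81), Bicc1 (0.80) and Mideas (0.80), of which Nfkbia and Tsc22d3 are on the glucocorticoid list. For Mt2A they were Upp1, a uridine phosphorylase (0.88), Bet1 (0.88), Dnase2, the lysosomal nuclease (0.86), Cetn2 (0.83) and Ctdsp1 (0.82). For Anxa1 they were Apcdd1, an inhibitor of Wnt signalling (0.92), Col4a1, a basement membrane collagen (0.89), Myc (0.85), Tmbim1 (0.85) and Gfap (0.84). These values include the difference between groups and share the libraries and their scaling, and they are a description.

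After subtracting group means, Upp1 was still the nearest to Mt2A (rho 0.86) and Garre1 was the nearest to Per1 (0.77), while Tsc22d3 and Nfkbia were no longer among Per1's 5. The 5 nearest to Anxa1 then were Tpm2 (0.73), Apcdd1 (0.73), Myo18b (0.72), Ca3 (0.72) and Mb (0.71), and Tpm2, Myo18b, Ca3 and Mb encode muscle proteins. Mb averaged 1.46 CPM in naive, 7.81 CPM in sham and 148 CPM in TKA rats. In TKA rats 3 and 6, where Anxa1 was highest, and in sham rats 1 and 4, the 2 highest sham rats, the muscle markers had median shifts of 4.16, 4.13, 3.17 and 3.66 on the log2 scale from the naive mean. TKA rat 2, with the largest muscle shift of 7.51, had Anxa1 at 87.6 CPM, near the TKA median. TKA rats 1, 4 and 5, with shifts of 0.36, -0.31 and 2.40, had Anxa1 at 74.8, 85.7 and 67.4 CPM, so the order of the TKA rats was not the same for both. Naive rat 6 had the largest muscle shift of its group, 2.22, with Anxa1 at 51.0 CPM. Naive rat 2, with the highest naive Anxa1 at 62.9 CPM, had a shift of -1.23. Naive rat 1 was the lowest of its group in both, at -1.50 and 47.9 CPM. The part of muscle tissue in the Anxa1 level was not tested.

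Per1 also sits in the circadian clock, where the activator Arntl and the repressors Per1 and Nr1d2 peak at opposite hours of the day. Of 17 clock genes listed, 7 had a name, and in TKA against sham rats all 7 were above 0 (median 0.43). Of all transcripts 51.5% were above 0, as were 65% of those named through the study's table for this comparison. Bhlhe40 alone was at an unadjusted p under 0.05 (0.43, SE 0.19). At that threshold 5.94% of all transcripts and 42.2% of those so named were higher. Bhlhe40 was 0.27 without TKA rat 2 (edgeR unadjusted p = 0.102). The median of the 7 was 0.25 without TKA rat 2, 0.16 without TKA rats 2 and 6, and 0.04 with the neurofilament covariate. Over 18 rats with group means subtracted, Per1 followed Dbp most closely among them (r = 0.68, permutation p = 0.00844, rho = 0.63, permutation p = 0.0178), then Per3 (r = 0.63, permutation p = 0.0228, rho = 0.62, permutation p = 0.0215) and Bhlhe40 (r = 0.48, permutation p = 0.0698, rho = 0.61, permutation p = 0.0146). Leaving out TKA rat 4 and naive rat 2, the rats farthest from the median of Per1, r was 0.64, 0.67 and 0.49. On the glucocorticoid list Per1 followed Nfkbia (r = 0.60, permutation p = 0.0214, rho = 0.57, permutation p = 0.0170) and Errfi1, an inhibitor of EGF receptor signalling (r = 0.53, permutation p = 0.0469, rho = 0.52, permutation p = 0.0385). Leaving out the same 2 rats, r was 0.53 and 0.68. With TKA rat 2 left out instead, r was 0.66 for Dbp, 0.60 for Per3, 0.37 for Bhlhe40, 0.53 for Nfkbia and 0.41 for Errfi1. Mt2A followed Bcl6, a transcriptional repressor (r = 0.58, permutation p = 0.0265, rho = 0.57, permutation p = 0.0283), Mertk, a receptor for the uptake of dead cells (r = 0.60, permutation p = 0.0488, rho = 0.59, permutation p = 0.0294), and Arrdc2 (r = 0.59, permutation p = 0.0563, rho = 0.55, permutation p = 0.0276). Without TKA rats 1 and 2, the rats farthest from the median of Mt2A, r was 0.53, 0.49 and 0.29. These are the 8 relations with an unadjusted p under 0.05 by either measure of 90 relations computed between the 3 genes and the named genes of the clock and glucocorticoid lists, and adjusted over the 90 none was under 0.05 (0.565 for each r, and 0.378 for each rho except 0.433 for Errfi1). Anxa1 had none of its 30 relations at an unadjusted p under 0.05.

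By sex as labelled, Per1 was the gene of the 3 whose groups separated. In naive rats it was 52.8, 72.4 and 86.0 CPM in the 3 males and 90.2, 95.2 and 107 CPM in the 3 females, every female above every male, as for 8.13% of transcripts. In TKA rats the labelled order turned, as for 3.55% of transcripts. Rats labelled male were at 129, 147 and 161 CPM and rats labelled female at 75.7, 80.2 and 128 CPM. The 75.7 CPM belongs to TKA rat 4, whose transcripts read as male. With that rat entered as a male, Per1 overlaps between the sexes in TKA rats. In sham rats the sexes overlapped, at 55.1 to 77.1 and 67.1 to 76.0 CPM. Sham over naive, the log2 fold-change of Per1 was -0.43 (SE 0.16) in females and -0.06 (SE 0.16) in males. The edgeR unadjusted p was 0.0195 and 0.704 in that order, and 0.134 for the interaction. The log2 fold-change of TKA over naive was 1.08 (SE 0.23) in males and -0.04 (SE 0.22) in rats labelled female, and the difference of -1.12 (SE 0.32) had an edgeR interaction p of 0.00437 (adjusted p = 0.995, with 4.69% of transcripts under 0.05). An exact permutation of the sex labels within groups, with 400 arrangements, gave p = 0.005, the smallest it can give (0.045 adjusted over 9 tests).

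TKA rat 4 decides part of that difference. Left out, it was -0.97 (SE 0.33, edgeR p = 0.0139) with an exact permutation p of 0.005 over 200 arrangements, and entered as a male, as its transcripts read, -0.79 (SE 0.41, edgeR p = 0.0797) with an exact permutation p of 0.11. In TKA against sham rats the log2 fold-change of Per1 was 1.13 (SE 0.21) in males and 0.39 (SE 0.21) in rats labelled female, a difference of -0.74 (SE 0.29, edgeR p = 0.0274 with 2.65% of transcripts under 0.05, adjusted p = 0.9996, exact permutation p = 0.065, or 0.292 adjusted over 9 tests). Without TKA rat 4 this was -0.60 (SE 0.30, edgeR p = 0.0689) with an exact permutation p of 0.085, and with that rat entered as a male -0.41 (SE 0.39, edgeR p = 0.314) with an exact permutation p of 0.393. Mt2A and Anxa1 overlapped between the sexes in every group, and their interactions had edgeR p between 0.180 and 0.921.

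Among naive rats 3 of the 7 other named clock genes also split by labelled sex, while Per3, Dbp, Hlf and Nfil3 overlapped. Arntl was 22.1 to 35.2 CPM in naive males and 13.3 to 16.3 CPM in naive females, every male above every female, as for 11.1% of transcripts. Nr1d2 ran the other way at 44.4 to 50.01 CPM in males and 59.9 to 70.4 CPM in females, and Bhlhe40 did too, at 15.4 to 20.2 and 22.2 to 27.3 CPM. For both, every female was above every male, as for 8.13% of transcripts. In sham rats these 3 genes overlapped between the sexes, and of the 7 Dbp alone separated, at 9.71 to 11.7 CPM in males and 5.48 to 7.41 CPM in females, as for 7.05% of transcripts. Among TKA rats Bhlhe40 was 31.0 to 45.5 CPM in males and 24.6 to 26.6 CPM in rats labelled female, as for 3.55% of transcripts. Per1 had the same order there, while Arntl and Nr1d2 overlapped. The rats labelled female include TKA rat 4, whose transcripts read as male, and Bhlhe40 was not tested with that rat moved or left out. With 3 rats of each sex in a group no exact test within it can go below 0.1, and the part of the hour of collection in these levels was not tested.

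**Figure D5:**
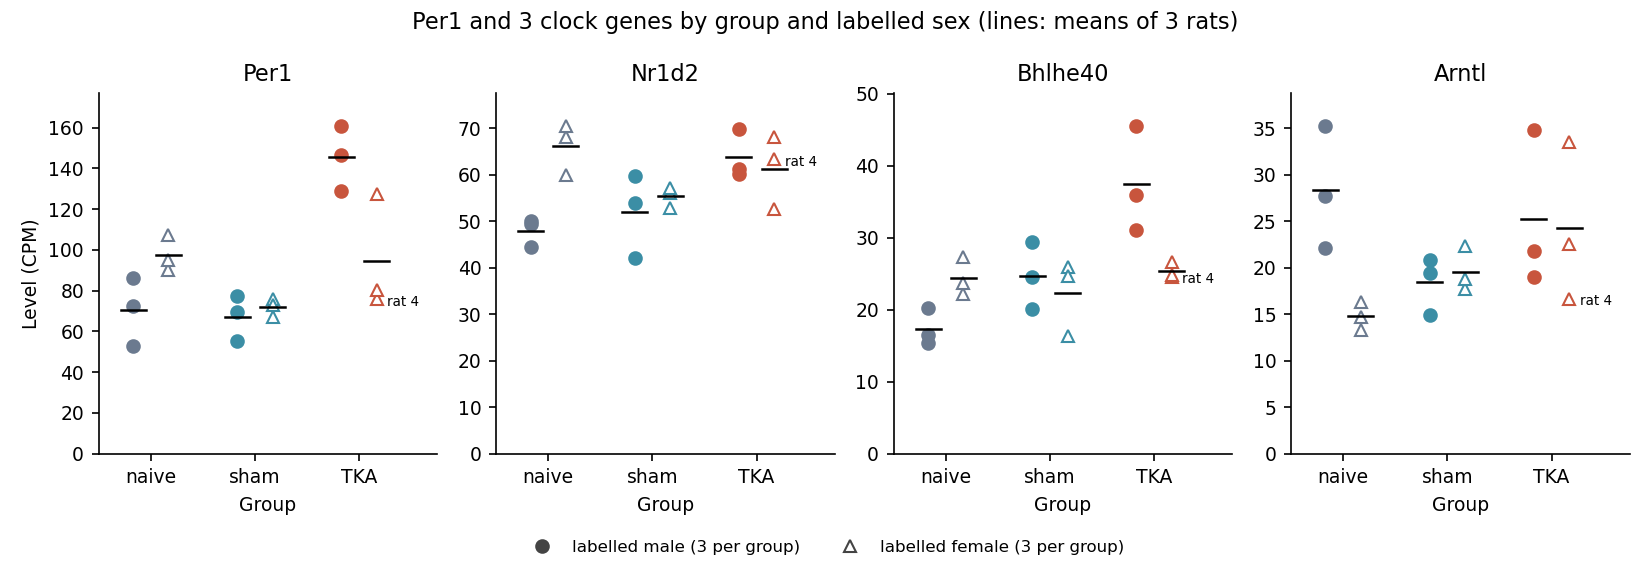
Levels in CPM (y axes, from 0) of Per1 and the clock genes Nr1d2, Bhlhe40 and Arntl by group; filled circles are rats labelled male, open triangles rats labelled female, and lines the means of 3 rats. In naive rats the females are above the males for Per1, Nr1d2 and Bhlhe40 and below them for Arntl. In the TKA group the rats labelled male are above the rats labelled female for Per1 and Bhlhe40, and for Per1 the sexes overlap once TKA rat 4 counts as male. TKA rat 4, labelled female but reading as male in its sex-linked transcripts, is marked.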

How the data were processed

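Per the labels, RNA of left L3 and L4 dorsal root ganglia from 18 rats was sequenced. According to the methods and the submitters' processing notes the authors aligned reads with HISAT2 to rn6 and counted them with featureCounts. The deposited table holds raw counts per Ensembl transcript, not normalized, 1 column per rat, and 0 columns could not be mapped. The notes also name DESeq2. Strand use in counting is not given in the sources used here. Transcript names came from the study's gene tables (3837 transcripts named), whose own comparisons were not used. No protein table or rn6 annotation was used.

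Each pair of groups (12 rats) was tested with edgeR 4.0.16 (R 4.3.3; filterByExpr, TMM, quasi-likelihood test, Benjamini-Hochberg over all transcripts tested), a call needing both an adjusted p below 0.05 and a fold-change no smaller than 1.5. SE was derived from the F statistic. Levels are CPM, and log2 CPM uses a prior count of 2. Single genes were also tested by exact permutation over rats (all splits of 12, 2-sided), sex by surgery by an interaction, and co-variation by 100000 permutations within groups (scipy 1.17.1). Counting error was not computed apart from the spread between rats, at 20230562 to 29343899 counts per rat. The labels make each sample a separate rat. Genes named were the 3 genes, all named genes of the lists, and the 5 nearest named transcripts per gene. Members and lists were chosen with earlier results of these data known. The script was tested on simulated data. Alternatives were RLE scaling, other count filters, DESeq2 1.42.0, limma 3.58.1 voom with quality weights, sex or neurofilament covariates, 3 groups in one fit, a rat-number block, and left-out rats. Relations with list genes, the exact sex tests with TKA rat 4 moved or left out, the search for single outlying rats in CPM beside log2 CPM, and the levels of clock genes by sex were added after the data were seen. 1 marker of the Schwann cell list is not reported here.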

Additional observations from a re-analysis of the deposited data

Results flagged for a closer look

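The log2 fold-change of Per1 had an unadjusted interaction p under 0.05 between rats labelled male and female in both comparisons that hold the TKA group, which neither kept after adjustment over all transcripts. In TKA against sham rats the female minus male difference in log2 fold-change was -0.74 (edgeR interaction p = 0.0274, adjusted p = 0.9996, exact permutation p = 0.065, 0.292 adjusted over 9 tests), and in TKA against naive rats it was -1.12 (edgeR interaction p = 0.00437, adjusted p = 0.995, exact permutation p = 0.005, 0.045 adjusted over 9 tests). Both share the TKA rats, and among 9 such differences (3 genes in 3 comparisons) these 2 had an unadjusted p under 0.05. The library labelled female TKA rat 4, which read as male in its sex-linked transcripts, held the lowest Per1 level of the TKA group at 75.7 CPM. With that rat entered as a male the differences were -0.41 and -0.79 (edgeR p = 0.314 and 0.0797, exact permutation p = 0.393 and 0.11).

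TKA rat 2 stood apart from the other 5 TKA rats for Mt2A in CPM, at 57.2 CPM against 23.8 CPM for the next, a gap of 0.655 of the group's range that is above Dixon's 95% critical ratio for 6 values. On the log2 CPM scale it did not, nor did any rat in the 15 groups of values compared on that scale. With another 9 groups of values compared in CPM, chance alone gives about 1.2 of 24, and the scales share their rats.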

How the results depend on the processing

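No alternative reversed the log2 fold-change of Per1, Mt2A or Anxa1 in any comparison. In TKA against sham rats DESeq2 called 66 transcripts, voom with quality weights 1 and the fit of 3 groups 11, against 0, and DESeq2 took Per1 (0.80, adjusted p = 0.0309) and Mt2A (1.72, adjusted p = 0.0444) past the threshold. In sham against naive rats DESeq2 called 5. In TKA against naive rats, against 13 transcripts, the calls were 450 with DESeq2, 123 with voom, 116 with 3 groups in one fit, 39 with the neurofilament covariate and 105 without TKA rats 2 and 6, and they ran from 3 to 113 when single rats were left out, the 113 without TKA rat 2. Mt2A passed there with DESeq2 (2.08), 3 groups in one fit (2.08) and without TKA rats 2 and 6 (1.35), and Anxa1 with DESeq2 (0.72), voom (0.66), 3 groups (0.73) and without rats 2 and 6 (0.67). With single rats left out Mt2A ran from 1.54 to 2.27, past the threshold without TKA rat 2 (adjusted p = 0.0156), and Anxa1 from 0.62 to 0.80, past it without TKA rat 2 (0.0234) or rat 5 (0.0391). Per1 ran from 0.42 to 0.64 and stayed short of it (adjusted p 0.136 to 0.379). None of the 3 genes passed it in any comparison in the main edgeR fit, nor with the neurofilament covariate. The cause of these moves was not tested.

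Rats share replicate numbers across groups, but same-numbered rats were separate animals and the correlation of their deviations was between -0.05 and 0.22, so the numbers do not pair them. With the rat number as a replicate block the calls were 0 in TKA against sham, 0 in sham against naive and 1 in TKA against naive rats. Blocked log2 fold-changes in TKA against sham rats were 0.75 for Per1, 1.53 for Mt2A and 0.49 for Anxa1. Co-variation changed sign for Per1 with Mt2A without TKA rat 2 (r = -0.12) and for Per1 with Anxa1 in CPM without TMM scaling (r = -0.019), permutation p = 0.696 and 0.943. The sex differences rest on 3 rats per sex and group.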
